A study of Equus caballus with 68 samples.

Results

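The comparison described here sets bone marrow mononuclear cells (BMNC) of horses as they came from the marrow against the cells recovered after 10 days in inflamed synovial fluid (ISF), that is, the net change over the whole culture. The members were the 15 samples, of 68 in all, whose labels gave either uncultured BMNC (0 hours, 8 horses) or BMNC kept in ISF for 10 days (7 horses), and the horse name joined the 2 samples of each of 7 animals. The horse Flash had a sample at 0 hours and none at 10 days.

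The donors were 8 Thoroughbreds aged 3 to 9 years, 2 mares and 6 geldings, and both groups shared this origin, with marrow aspirated before lipopolysaccharide (LPS), a bacterial cell wall component that sets off acute inflammation, was injected into the joints. The cells of each animal were cultured alone in undiluted fluid of the same animal, drawn from LPS-injected joints for ISF or from uninjected joints for the normal synovial fluid (SF) used as the other arm, and the fluid was depleted of its own cells and topped up during culture. Each cultured sample came from a single well, without cell sorting, so cells that died or were not recovered from the well do not contribute to the 10 day samples.

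Bone marrow mononuclear cells are a mixture of granulocyte precursors, nucleated red cell precursors, lymphocytes, stem and progenitor cells, and monocytes. Monocytes and their precursors differentiate in culture into macrophages, large adherent cells that engulf debris and dying cells, digest them in lysosomes, and export or store the cholesterol they take up. In the joint, macrophages both drive inflammation and help to end it.

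Expression is given as GeTMM, a value per kilobase of gene scaled between samples, so levels can be set side by side between genes. Reads on genes, recovered from the table, numbered 17488000 to 30954000 per sample at 0 hours and 18818000 to 25530000 in ISF at 10 days. A single read on a gene of 1 kb was worth 0.0417 to 0.0792 GeTMM in these 2 groups, so values near that level rest on single reads. All 15 samples lay closest to the other samples of the horse on their label. The summed GeTMM of the sample of Ollie at 0 hours was 1458340 against 998292 to 1150750 in the other 7, and the sample of Moon in ISF at 10 days stood apart in fibroblast genes, so results are also given without them where they move. Without Ollie the net change gave 5086 higher and 5404 lower genes.

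A differentially expressed gene (DEG) was called by limma on log2(GeTMM + 1) where its FDR, the Benjamini-Hochberg false discovery rate, was under 0.05, and log2 changes are given on that scale as the estimate ± its standard error (SE), 10 days minus 0 hours. Levels of a gene in a group are given as the median in GeTMM with the lowest and the highest sample in brackets. Most of the transcriptome differed between fresh marrow and the 10 day culture. Of 14570 genes tested, 5266 (36.1%) were higher and 5590 (38.4%) lower at 10 days, and 2796 of the higher and 3112 of the lower genes changed by at least 1 on the log2 scale. Counts of list members that rose or fell over the net change are to be read beside these 36.1% and 38.4%. A change of at least 5 was found in 102 genes that rose and 154 that fell. The values of the 8 samples at 0 hours and the 7 in ISF at 10 days did not overlap for 7045 genes (48.4%). Of the DEGs, 8921 (82.2%) changed in the same direction in all 7 horses. The typical distance between the 2 samples of a horse (root mean square over all tested genes) was 1.70 to 1.75 log2 units, while 2 horses at 0 hours differed by 0.42 to 0.66 and 2 horses in ISF at 10 days by 0.46 to 0.76. The spread between animals was thus smaller than the net change in each pair compared.

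The most abundant transcripts were replaced. In bulk RNA, fewer cells of a type and less RNA per cell cannot be told apart, which applies to every cell type marker here. Among the 20 genes with the highest mean level at each end, 4 were shared, namely MT-CO1 (a mitochondrially encoded subunit of cytochrome c oxidase), B2M (the light chain of MHC class I), FTL (ferritin light chain) and an entry without a symbol. Of the 20 highest at 0 hours, 16 fell, and 12 had a mean under 100 GeTMM at 10 days. Of the 20 highest in ISF at 10 days, 17 rose, 0 fell, and 5 had a mean under 100 GeTMM at 0 hours. In fresh marrow the first place was held by S100A12 (calgranulin C, a granulocyte alarmin) with a mean of 35999 ± 13549 GeTMM (SD, n = 8), followed by LYZ (lysozyme) with 35704 ± 8983. In ISF at 10 days it was held by SPP1 (osteopontin, a secreted phosphoprotein of macrophages and bone) with 49195 ± 12335 GeTMM (SD, n = 7), followed by an entry without a symbol (ENSECAG00000024790), FTH1 (ferritin heavy chain, 21763 ± 5909) and FTL (20418 ± 4017). Because 7 of the 20 highest entries at 0 hours and 3 of the 20 at 10 days had no gene symbol, part of the most abundant RNA is given here by identifier only. Of these, ENSECAG00000010020 fell from a mean of 28514 to 0.368 GeTMM and ENSECAG00000010598 from 29847 to 34.9, while ENSECAG00000024790 rose from 349.7 to 21879.5 and ENSECAG00000039088 from 275 to 8274.

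**Figure D1:**
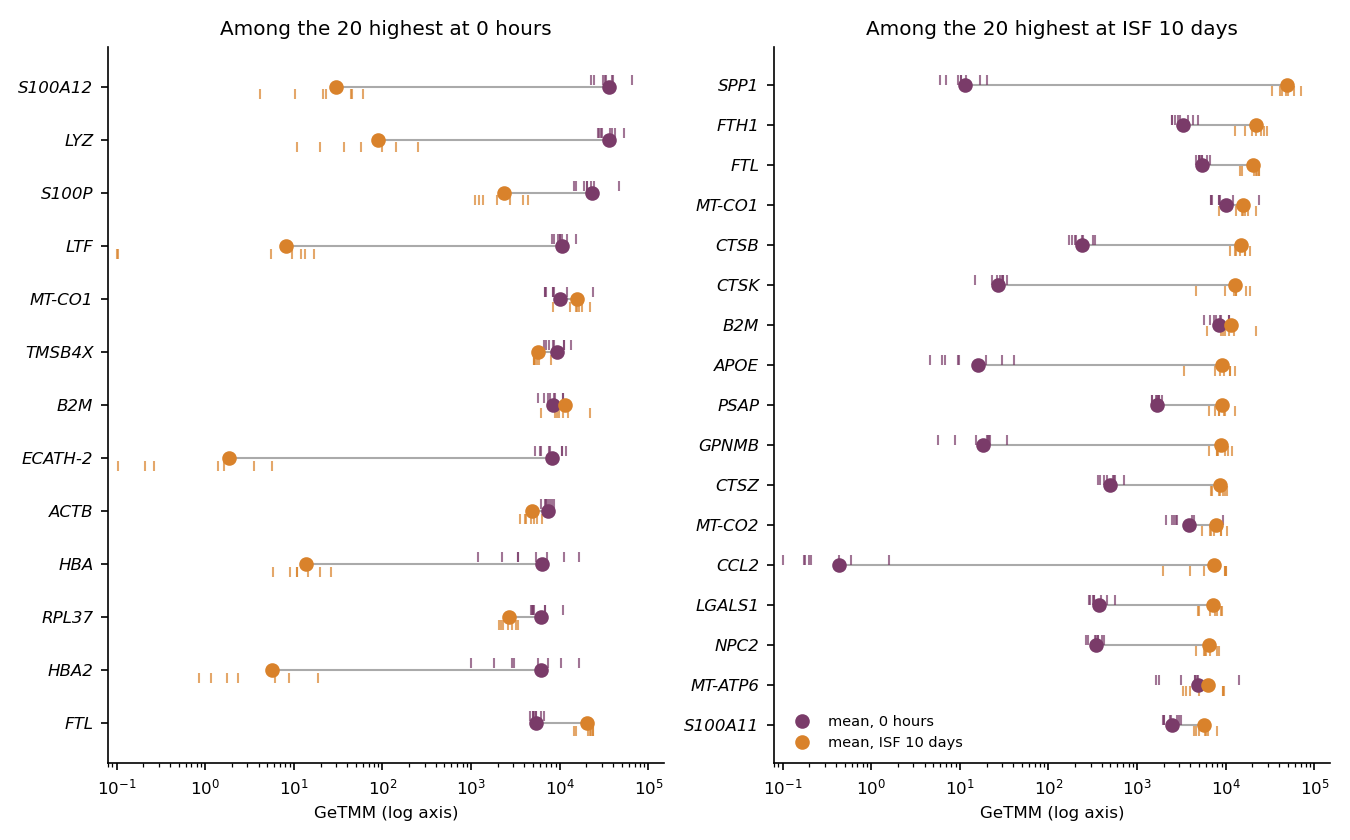
GeTMM on a log axis of the genes with a symbol among the 20 highest at 0 hours (left, 13 genes) and in ISF at 10 days (right, 17 genes). Dots are group means (purple 0 hours, n = 8, orange ISF 10 days, n = 7), short ticks the samples, with values under 0.1 drawn at 0.1. Granulocyte and hemoglobin genes on the left drop by several orders of magnitude, while MT-CO1, B2M, ACTB and TMSB4X stay within the same order.

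Although the leading genes were exchanged, the concentration of expression was similar in size. The 20 highest genes of a sample held 21.2% to 31.7% of its summed GeTMM at 0 hours (median 24.1%) and 23.2% to 27.3% in ISF at 10 days (median 23.8%). The mean difference within horses was -1.06 percentage points (exact sign-flip permutation test over 7 horses, two-sided, p = 0.547), so no change was detected with 7 pairs, for which the smallest possible p is 0.0156, and the sign turned to 0.10 without the horse Ollie. The number of genes at 1 GeTMM or more was 11781 to 12285 at 0 hours and 11418 to 11658 at 10 days, without overlap. It fell by 488 genes on average, in 7 of 7 horses (exact sign-flip permutation test, two-sided, p = 0.0156, the smallest possible), and with a threshold of 10 GeTMM the mean difference was -66.3 genes (exact permutation p = 0.266).

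Among genes with a symbol, the largest falls were mostly in genes known from granulocytes or red cell precursors, though not all are confined to these cells. The largest fall of any tested gene was in an entry without a symbol, ENSECAG00000010020, from a mean of 28514 to 0.368 GeTMM (log2 change -13.82), and other such entries fell by as much as the genes named here. S100A12 went from 32534 (22736 to 65935) GeTMM at 0 hours to 23.0 (4.19 to 60.5) at 10 days, a log2 change of -10.50 ± 0.92 (SE; FDR = 5.05e-16). LTF, lactoferrin of the secondary granules, went from 10095 (8152 to 15221) to 9.53 (0.0257 to 16.7, log2 change -10.77 ± 1.07), and ECATH-2, an equine cathelicidin (an antimicrobial peptide of granules), from 7729 (5195 to 11888) to 1.41 (0.104 to 5.68, log2 change -11.76 ± 1.28). In each of these genes the lowest fresh sample was more than 2 orders of magnitude above the highest cultured one. LYZ fell from 33619 (27113 to 52846) to 57.7 (10.8 to 249.7, log2 change -9.25 ± 0.82), with a spread between the cultured horses of more than 1 order of magnitude. The other genes among the 15 largest falls with a symbol were HBA2 and HBA (hemoglobin alpha chains, which share sequence, so reads may be divided between them), RETN (resistin), PADI4 (a citrullinating enzyme of neutrophils), OLFM4, ELANE (neutrophil elastase), LCN2 (lipocalin 2), AZU1 (azurocidin), BPI (a bactericidal protein of granules), ALPL (alkaline phosphatase) and AHSP (alpha hemoglobin stabilising protein). Their changes ran from -9.83 for HBA2 to -7.95 for AHSP. The values at 0 hours and 10 days did not overlap in any of the 15, beside 48.4% of all tested genes. A choice of the largest changes favours this.

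The marker lists of granulocytes, red cell precursors, lymphocytes and progenitors fell in nearly all of their members. Of the 16 tested genes of neutrophil precursors and granules, 15 fell and none rose, with a median log2 change of -8.11 against -0.03 over all tested genes. Summed over the list, their level went from 88723 (73208 to 149071) GeTMM to 4545 (1609 to 10303). What remained of the sum at 10 days was mostly MMP9 (gelatinase B, made by both neutrophils and macrophages), at 2119 (1677 to 2574) and then 3974 (971 to 9859) GeTMM, whose change was not significant (0.69 ± 0.42, FDR = 0.131) except without Catnip (0.99), without Moon (0.93) or without the ISF 10 day sample of Moon alone (0.97), and with sample weights (0.96). Of 24 erythroid genes, 23 fell (median -3.69), and 6 of the 25 listed in the table were at 0 in all 7 cultured samples. Their summed level went from 5505 (1603 to 20709.8) GeTMM to 119.7 (116 to 128), with the fresh samples differing among themselves more than 10 times. GATA1, the master transcription factor of red cells, went from 9.87 (3.43 to 55.3) to 0.1596 GeTMM (0 to 0.544, log2 change -3.58 ± 0.25). SLC4A1 (the band 3 anion exchanger) and ALAS2 (the first enzyme of heme synthesis in red cells), with means of 197 and 133 GeTMM at 0 hours, had no read in any sample at 10 days. UROD, a heme synthesis enzyme used by all cells, was the member of the list with the highest change and was not a DEG (-0.04 ± 0.15).

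Lymphocyte markers fell as well, and most remained detectable. Of 26 T and natural killer cell genes, 24 fell (median -2.92), among them CD3E and CD3G, chains of the T cell receptor complex, at 52.4 (34.0 to 107) and then 2.12 (1.24 to 5.63) GeTMM for CD3E (-4.17 ± 0.42) and 55.9 (37.3 to 76.1) and then 2.14 (0.319 to 3.22) for CD3G (-4.32 ± 0.40). CD8A (-3.85 ± 0.51) and the chemokine CCL5 (-3.16 ± 0.53) fell as well. The exceptions were LAT, a signalling adaptor, from a mean of 45.4 to 184 GeTMM (1.94 ± 0.37), and CD28, a costimulatory receptor, from 4.70 (2.73 to 9.69) to 185 (83.2 to 243, log2 change 4.74 ± 0.38). Both rose in 7 of 7 horses while the T cell receptor chains fell. Of 19 B and plasma cell genes, 18 fell (median -2.31), with CD79A, a chain of the B cell receptor, at 54.6 (34.7 to 101) and then 3.19 (0.892 to 5.56, log2 change -3.82 ± 0.45). MZB1, a plasma cell chaperone, showed the largest fall of the list (-4.84 ± 0.53), and JCHAIN, the joining chain of secreted antibodies, went from 648 (339 to 3771) to 123 (54.1 to 166, log2 change -2.80 ± 0.53). BLNK, an adaptor known from B cell receptor signalling, was the one member that rose, from 9.58 (6.72 to 12.1) to 173 (124 to 217, log2 change 4.05 ± 0.17).

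Stem cell, progenitor and megakaryocyte genes also fell, 17 of 18 (median -1.90), led by the platelet chemokine PPBP (-7.55 ± 0.87) and NFE2, a transcription factor of megakaryocytes and red cells (-6.56 ± 0.45). SELP (P-selectin) fell by 4.35 and THBS1 (thrombospondin 1) by 1.97 on the log2 scale, and GP1BA, a platelet receptor chain near the limit of detection, was not a DEG (0.00 ± 0.12). Genes of cell division declined with them. Of 28 proliferation genes, 25 fell and none rose (median -1.59), including AURKB, a mitotic kinase, at 42.0 (24.0 to 75.2) and then 5.07 GeTMM (1.99 to 14.1, log2 change -2.94 ± 0.30), and TYMS, thymidylate synthase (-2.36 ± 0.27). The replication helicase genes MCM7 (-1.47 ± 0.16) and MCM6 (-1.06 ± 0.18) and the polymerase clamp PCNA (-0.84 ± 0.20) fell by smaller amounts, and AURKA did not differ detectably (-0.05 ± 0.18). The cell cycle inhibitors CDKN1A (p21) and CDKN2A (p16) rose, CDKN1A from 2.33 (0.783 to 24.1) to 155 GeTMM (77.6 to 235, log2 change 5.20 ± 0.44) and CDKN2A from 1.69 (1.43 to 2.31) to 10.3 (3.58 to 18.2, log2 change 1.86 ± 0.24).

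**Figure D2:**
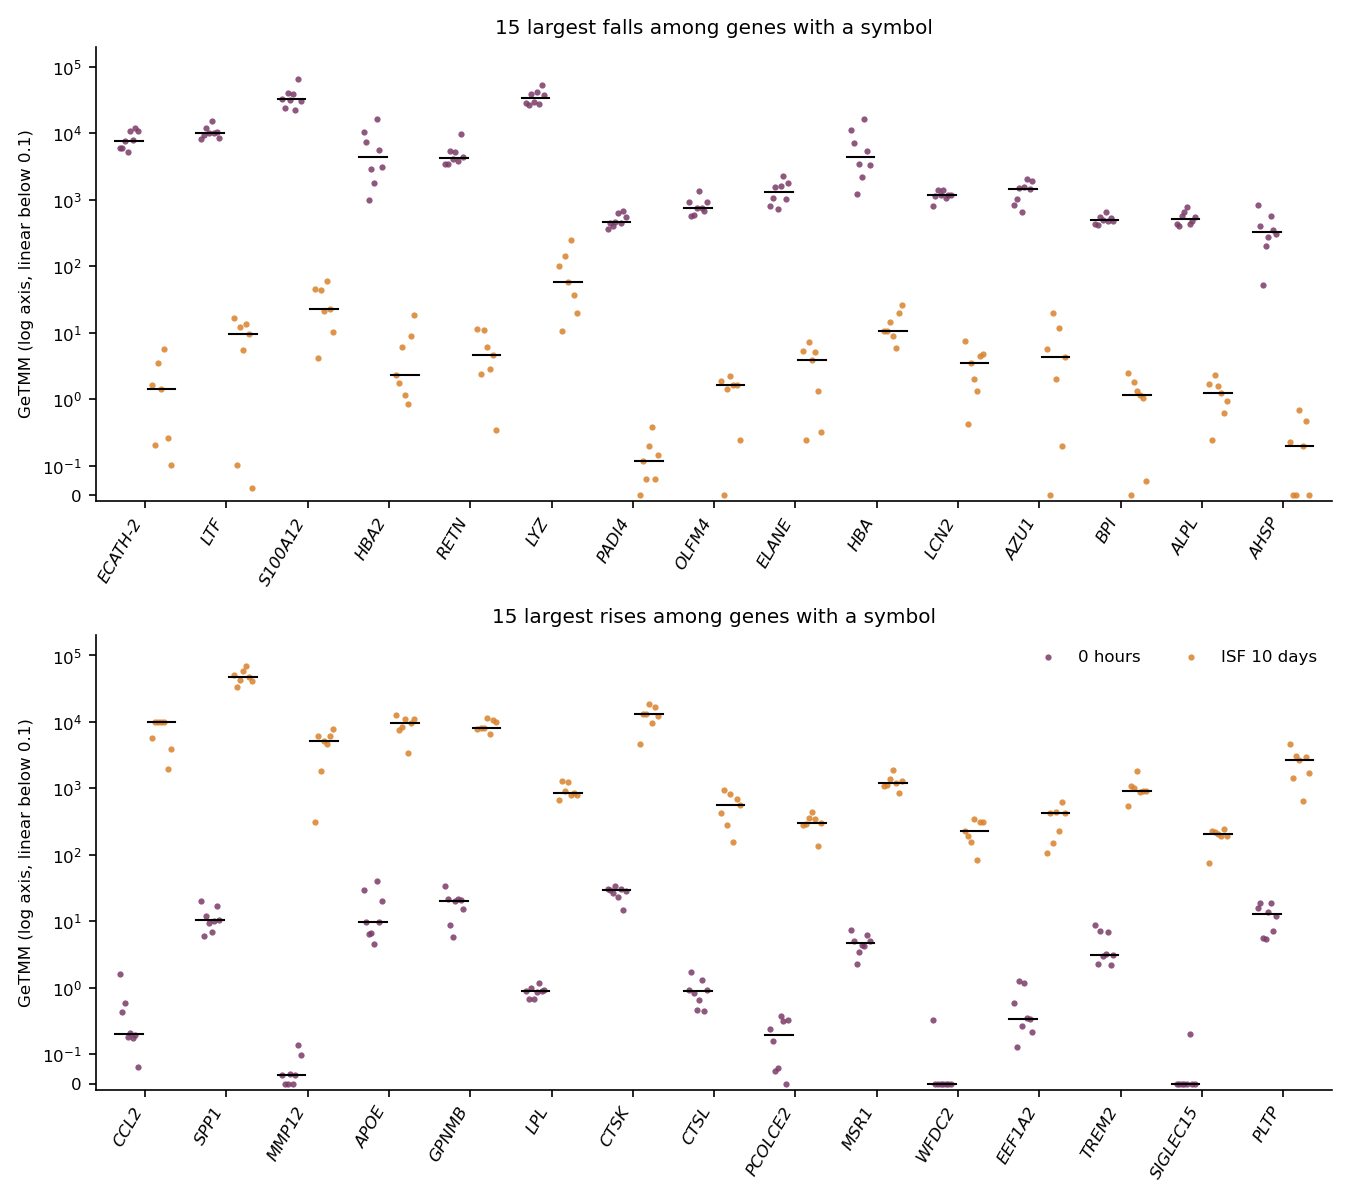
GeTMM per sample of the 15 genes with the largest falls (top) and the largest rises (bottom) among genes with a symbol, from 0 hours (purple, 8 samples) to ISF at 10 days (orange, 7 samples), on an axis that is logarithmic above 0.1 and linear below. Each point is 1 sample and black bars are medians. The 2 groups do not overlap in any of the 30 genes, which were chosen for large changes (no overlap in 48.4% of all tested genes).

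Among genes with a symbol, the largest rises were mostly in secreted, lysosomal and receptor proteins known from macrophages, though not all are confined to these cells. CCL2, the chemokine that recruits monocytes, went from 0.203 (0.0553 to 1.59) GeTMM at 0 hours to 9855 in ISF at 10 days (1941 to 10136, log2 change 12.18 ± 0.38, FDR = 1.16e-36). SPP1 went from 10.3 (5.91 to 20.2) to 47511 (33105 to 70479, log2 change 11.999 ± 0.61), and MMP12, the macrophage elastase, from 0.0292 (0 to 0.137) to 5249 (312 to 7824, log2 change 11.63 ± 0.81). At 0 hours MMP12 rested on 12 reads in all 8 samples together, against 1101149 reads in the 7 cultured ones. APOE, the apolipoprotein that carries cholesterol out of macrophages, rose from 9.68 (4.57 to 40.9) to 9637 (3390.4 to 12632, log2 change 9.33 ± 0.36). GPNMB, a glycoprotein of lysosome-rich macrophages, rose from 20.4 (5.71 to 33.7) to 8083 (6499.6 to 11648, log2 change 8.97 ± 0.30), and LPL, lipoprotein lipase, from 0.885 (0.677 to 1.17) to 865 (663 to 1286, log2 change 8.92 ± 0.50). Every cultured sample stood above every fresh sample in all of these genes, which were chosen for the size of their rise. Further down the same list came CTSK and CTSL (cathepsins), PCOLCE2 (a collagen-processing enhancer), MSR1 (a scavenger receptor), WFDC2, EEF1A2 (an elongation factor isoform), TREM2 (a lipid-sensing receptor), SIGLEC15 and PLTP (phospholipid transfer protein), with changes from 8.73 for CTSK to 7.46 for PLTP. WFDC2 and SIGLEC15 had 2 and 3 reads at 0 hours in all, each in a single horse.

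Of 20 macrophage identity genes, 17 rose and none fell, beside 36.1% and 38.4% of all tested genes, with a median change of 3.01. The list is no independent check of cell identity, since SPP1, APOE, GPNMB, TREM2 and MSR1 are also among the largest rises above. Summed over the list, the level went from 1108 (752 to 1274) to 76812 (57204 to 92883) GeTMM, which is 0.102% and 6.98% of all GeTMM (medians). SPP1 was by far the largest part of the sum at 10 days (mean 49195 GeTMM), followed by APOE (9154) and GPNMB (8928). CD68, a lysosomal membrane protein used as a pan-macrophage marker, went from 82.0 (64.2 to 99.5) to 3924 GeTMM (2805 to 4548, log2 change 5.52 ± 0.14). CD163, the hemoglobin scavenger receptor, rose from 88.0 (71.5 to 146) to 613 (468 to 1468, log2 change 3.01 ± 0.47). TREM2 rose from 3.16 (2.22 to 8.78) to 923 (545 to 1809, log2 change 7.57 ± 0.27). The complement chains C1QB and C1QC, high in many tissue macrophages, did not differ detectably, with C1QC at 241 (79.9 to 359) and then 204 (131 to 268, log2 change -0.15 ± 0.63, FDR = 0.837). Summed over the fibroblast and stromal list the level was dominated by THY1 at 0 hours. Of its 14 tested genes, none rose, and the 2 that fell were THY1, from 4163 (3105 to 6009) to 104.3 (55.4 to 383, log2 change -5.004 ± 0.68), a glycoprotein that other marrow cells also carry, and the chemokine CXCL12 (mean 15.3 to 0.0930). The collagen genes were at or near 0 in 6 of the 7 cultured samples and higher in that of Moon, with COL1A1 at 13.6 GeTMM against 0.0143 to 0.232 in the others, COL3A1 at 6.72 against 0.0123 to 0.287 and LUM (lumican) at 10.8 against 0 to 0.670. Without that sample the net change gave 5185 higher and 5481 lower genes.

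Genes of the lysosome, the digestive compartment of phagocytes, rose nearly as a whole. Of 43 tested cathepsins, hydrolases and membrane proteins, 41 rose, 1 fell and 1 was not a DEG, with a median change of 2.24. Summed over the list, the level went from 6896 (5884 to 7878) GeTMM to 72583 (56229 to 89867), or from 0.607% to 6.47% of all GeTMM (medians). The highest of them at 10 days were CTSB, from 222 (173 to 338) to 14453 (11183 to 19026, log2 change 5.97 ± 0.19), and CTSK, the collagen-degrading cathepsin of osteoclasts, from 29.1 (14.8 to 34.0) to 12980.1 (4642 to 18807, log2 change 8.73 ± 0.39). PSAP, the saposin precursor (2.39 ± 0.17), and CTSZ (4.13 ± 0.18) followed, as did NPC2, which hands cholesterol out of the lysosome (4.21 ± 0.16). TFEB, a transcription factor that switches on lysosomal genes, fell from 155 (137 to 179) to 66.7 (54.6 to 90.6, log2 change -1.15 ± 0.19), whereas its relative MITF rose from 2.24 (1.36 to 3.31) to 43.5 (39.0 to 53.0, log2 change 3.82 ± 0.19). All 17 tested subunits and partners of the vacuolar proton pump, which acidifies lysosomes, rose (median 1.01), from ATP6V1E1 (0.49 ± 0.13) to ATP6V0D2, the subunit known from osteoclasts (5.25 ± 0.73). The most abundant subunit, ATP6V0C, went from 1025 (863 to 1296) to 1850.4 GeTMM (1383 to 2020.0, log2 change 0.74 ± 0.16).

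Of 16 genes of osteoclasts and cell fusion, 12 rose and 2 fell (median 2.81). All counts of this paragraph stand beside 36.1% higher and 38.4% lower over all tested genes. Besides CTSK, the rises included SIGLEC15, a receptor that takes part in osteoclast fusion, at 208 GeTMM at 10 days (76.6 to 244, log2 change 7.50 ± 0.55), CKB, brain-type creatine kinase, from 21.0 (12.9 to 37.2) to 1442 (675 to 3185, log2 change 6.02 ± 0.31), and ACP5, tartrate-resistant acid phosphatase (1.78 ± 0.33). OSCAR, a costimulatory receptor of osteoclast precursors, fell from 97.4 (72.2 to 109) to 7.76 (3.16 to 20.4, log2 change -3.33 ± 0.33). Several of these genes are also lysosomal or general macrophage genes, and CTSK, ACP5 and ATP6V0D2 are counted in more than one list. Of 14 matrix metalloproteinases and inhibitors, 9 rose and 3 fell. ADAM9 (4.26 ± 0.25) and TIMP1, an inhibitor of these proteases (4.84 ± 0.38), rose with MMP12, and MMP25, a membrane-bound protease of neutrophils, fell from 313 (258 to 434) to 3.18 (1.68 to 3.79, log2 change -6.50 ± 0.36). Of 22 genes of apoptotic cell clearance and scavenger receptors, 14 rose and 5 fell (median 1.53). This list holds bridging proteins such as GAS6 and other genes such as RAC1 besides receptors. MSR1, the class A scavenger receptor, went from 4.72 (2.31 to 7.40) to 1198 GeTMM (856 to 1861, log2 change 7.78 ± 0.32), CD36, a receptor for oxidised lipid, from 29.1 (15.6 to 43.7) to 1289 (933 to 1991, log2 change 5.57 ± 0.25), and CALR (calreticulin) changed by 1.47 ± 0.16. AXL, a receptor for the bridging protein GAS6 on dying cells, fell from 15.03 (4.05 to 17.8) to 1.07 (0.308 to 2.01, log2 change -2.57 ± 0.39).

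Genes of lipid uptake, transport and breakdown mostly rose. Of 32 genes, 19 rose and 6 fell (median 1.23), beside 36.1% and 38.4% of all tested genes. The summed level went from 1535 (1352 to 1672) to 18522 (12387 to 22823) GeTMM, of which APOE was the largest part. PLTP went from 12.9 (5.45 to 19.1) to 2669 (651 to 4685, log2 change 7.46 ± 0.30), and FABP5, a fatty acid carrier, from 19.5 (14.1 to 25.4) to 1241 (924 to 1801, log2 change 6.01 ± 0.27). PPARG, a nuclear receptor for fatty acids, rose from 6.71 (5.90 to 8.11) to 23.7 (14.8 to 48.7, log2 change 1.77 ± 0.15). The enzymes of fatty acid oxidation ACAA2 (2.28 ± 0.13) and HADHA (1.18 ± 0.12) rose in 7 of 7 horses each. DGAT2, which makes triglyceride, fell from 177 (112 to 228) to 1.33 (0.451 to 3.93, log2 change -6.16 ± 0.43). A further list held the mevalonate pathway, the sterol synthesis that follows it, their regulators and genes of fatty acid synthesis. Of its 34 tested genes, 25 rose and 4 fell (median 1.13). The enzymes HMGCS1 (1.52 ± 0.33), MVK (1.43 ± 0.21), ACAT2 (1.18 ± 0.14) and FDPS (1.22 ± 0.30) rose, as did CYP51A1, from 11.97 (8.76 to 18.8) to 150.0 (72.7 to 194, log2 change 3.34 ± 0.25), DHCR7 (3.07 ± 0.28) and MSMO1 (2.34 ± 0.30). INSIG1, which restrains sterol synthesis, rose most, from 14.2 (7.05 to 24.2) to 459 (218 to 749.7, log2 change 4.93 ± 0.34), and SCAP, the sterol sensor it binds, rose by 0.72 ± 0.11. LBR, a protein of the inner nuclear membrane with sterol reductase activity, fell from 426 (357 to 495) to 20.7 (14.3 to 46.8, log2 change -4.12 ± 0.37). The others of the list that fell were the regulators SREBF1 and SREBF2 and the fatty acid gene FADS2, named after their values were seen.

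Nuclear genes of the mitochondrial respiratory chain rose by small amounts. Of 63 tested subunits, 54 rose, none fell, and the median change was 0.88, from 1.97 ± 0.24 for ATP5MC1, a subunit of the ATP synthase ring, to -0.11 ± 0.21 for NDUFB9, which was not a DEG. PPARGC1A, a coactivator of mitochondrial genes, was nearly silent in fresh marrow at 0.0701 (0 to 0.126) GeTMM and reached 14.8 (6.85 to 22.8, log2 change 3.76 ± 0.27). Of 3 mitochondrially encoded genes among the highest, MT-CO1 (0.69 ± 0.19) and MT-CO2 (1.15 ± 0.21) rose, and MT-ATP6 was not a DEG (0.53 ± 0.40, FDR = 0.229) except with sample weights (0.70). In glycolysis, 13 of 22 genes rose and 2 fell (median 1.00). LDHA, lactate dehydrogenase A, went from 567 (435 to 654) to 1583 (1071 to 2395, log2 change 1.62 ± 0.16), and ENO1 from 1075 (839 to 1212) to 2138 (1341 to 2802, log2 change 1.06 ± 0.19). ENO2, a second enolase, rose from 0.389 (0.0495 to 0.696) to 43.2 (10.5 to 177, log2 change 5.28 ± 0.49), with more than 10 times between the lowest and the highest cultured horse. HK3, the hexokinase of myeloid cells, fell from 1086 (924 to 1272) to 5.31 (2.54 to 7.48, log2 change -7.49 ± 0.51), and GAPDH was not a DEG (0.41 ± 0.21, FDR = 0.0776) as reported. GAPDH was called without Moon (0.50) or the ISF 10 day sample of Moon alone (0.54), with only the 2 groups compared (0.41, and 0.42 with horse as a block), with the same sum in every sample (0.47) and with sample weights (0.42).

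The iron storage genes of ferritin were among the most abundant at the end. FTL rose from 5263 (4663 to 6622) to 22143 (14374 to 23915, log2 change 1.90 ± 0.22) and FTH1 from 2978 (2483 to 4813) to 21914 (12729 to 29115, log2 change 2.71 ± 0.24). Of 30 antioxidant, heme and iron genes, 19 rose and 7 fell (median 1.22). HMOX1, heme oxygenase 1, rose by 2.31 ± 0.31, PRDX1, a peroxiredoxin, by 3.55 ± 0.27 and SRXN1, which repairs peroxiredoxins, by 4.02 ± 0.22. The factor known to drive them, NFE2L2, rose by 0.38 ± 0.15, a call lost without Catnip (0.34), without Dreamer (0.33) or with the same sum in every sample (0.44), and the related NFE2L1 by 2.83 ± 0.23. SLC40A1 (ferroportin), the iron exporter, fell from 159 (100.0 to 178) to 11.6 (3.38 to 17.3, log2 change -3.98 ± 0.49) while the ferritins rose.

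**Figure D3:**
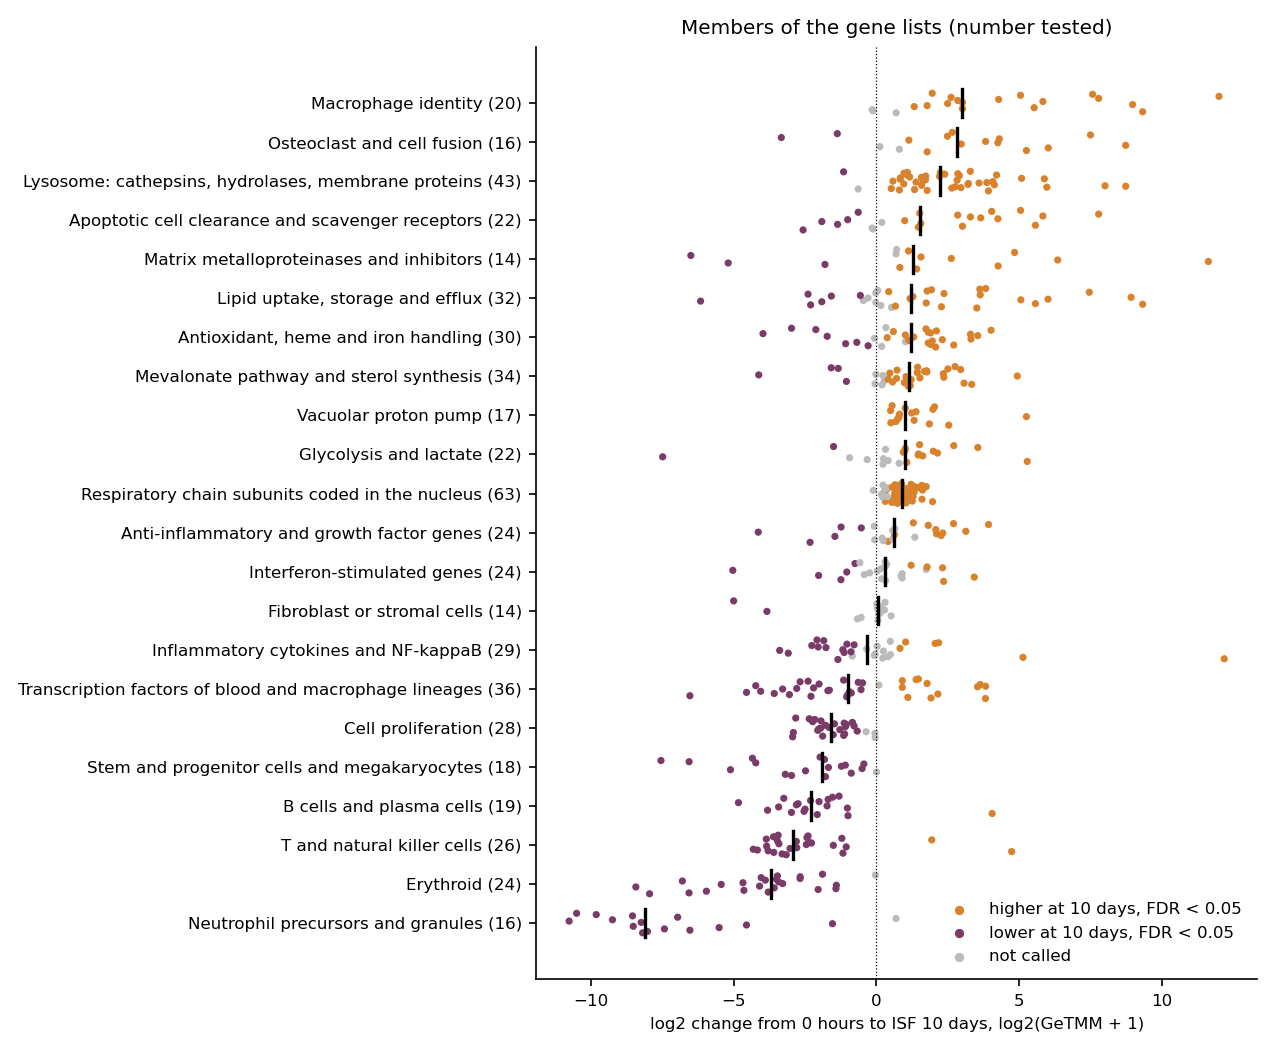
Log2 change from 0 hours to ISF at 10 days (x axis) of each tested member of 22 gene lists, 1 row per list with the number tested, with black bars at the list medians. Orange members rose and purple members fell at an FDR under 0.05, and grey members were not called. The neutrophil list lies farthest to the left (median -8.11) and the macrophage list farthest to the right (median 3.01).

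Inflammatory genes did not move as a group. Of 29 cytokines and NF-kappaB genes tested, 6 rose and 13 fell, the latter near the share of all tested genes that fell (38.4%, with 36.1% higher), and the median change was -0.34. IL1B, the interleukin 1 beta gene, fell from 14.9 (8.36 to 20.2) to 0.562 GeTMM (0.0688 to 2.69, log2 change -3.09 ± 0.32), and TREM1, an amplifier of inflammation on myeloid cells, from 470.4 (399 to 822) to 164 (35.2 to 286, log2 change -2.09 ± 0.45). IRAK3 (-3.39 ± 0.27), NFKBIA, the inhibitor of NF-kappaB (-1.77 ± 0.27), MYD88 (-1.18 ± 0.21), IL1RN, the interleukin 1 receptor antagonist (-1.13 ± 0.39), and RELA, a subunit of canonical NF-kappaB (-1.03 ± 0.15), also fell, IL1RN not past the threshold without Dreamer (-0.88). The 6 that rose were CCL2, the receptor TLR2 (1.02 ± 0.34), SOCS3 (2.18 ± 0.37), the chemokine CCL3, from a mean of 17.7 to 649 GeTMM (5.13 ± 0.44), and both subunits of noncanonical NF-kappaB, NFKB2, from 24.0 (18.1 to 27.0) to 40.0 (27.9 to 56.0, log2 change 0.83 ± 0.15), and RELB, from 6.37 (3.70 to 8.59) to 33.0 (13.6 to 41.4, log2 change 2.06 ± 0.22). The subunits of the 2 NF-kappaB routes thus changed in opposite directions, although NFKB1 of the canonical route was not a DEG (-0.34 ± 0.19). IL6 (0.24 ± 0.17), TNF (0.49 ± 0.23) and CXCL8 (-0.85 ± 0.47) were not DEGs. TLR2, SOCS3, CCL3, NFKB1 and these 3 cytokines, like SLC4A1, ALAS2, LAT, C1QB and CXCL12 above, were named after their values were seen.

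Among 24 anti-inflammatory and growth factor genes, 11 rose and 5 fell, beside 36.1% and 38.4% of all tested genes, and 10 to 15 rose over the refits. IL10, the main anti-inflammatory cytokine gene, rose from 0.562 (0.234 to 1.36) to 5.70 (2.7 to 14.0, log2 change 2.26 ± 0.37), and its receptor chain IL10RB from 136 (106 to 159.6) to 601 (419.9 to 645, log2 change 2.11 ± 0.11). IL4R (2.32 ± 0.18) and TGFBR2, a receptor for transforming growth factor beta (3.92 ± 0.18), rose, and TGFB1 itself was not a DEG (-0.08 ± 0.18). IGF1, insulin-like growth factor 1, went from 0.512 (0 to 1.13) to 2.01 (0.479 to 10.0) GeTMM. Its change of 1.34 ± 0.64 was not past the threshold (FDR = 0.0538), was higher in 6 of 7 horses, and was past it with horse as a block (1.51, FDR = 0.00332) and without Flash (1.36), without Moon (1.39) or without RimRun (1.62). It was also past the threshold with only the 2 groups compared (1.34, and 1.36 with horse as a block) and with a pseudocount of 0.1 (2.46). Over all refits the estimate ran from 1.14 (without Dreamer) to 2.73 (voom on recovered reads), neither of them called. LTA4H, which makes leukotriene B4, fell from 447 (353 to 493.5) to 24.6 (19.98 to 29.4, log2 change -4.14 ± 0.27). CSF1, the growth factor of macrophages, rose from 5.26 (4.03 to 10.3) to 77.1 (36.0 to 143, log2 change 3.47 ± 0.58), EIF4E, the cap-binding translation factor, by 2.51 ± 0.19, PIK3R1, a regulatory subunit of PI3 kinase, by 1.27 ± 0.16, LARP1, a regulator of ribosomal protein translation, by 0.77 ± 0.12, CREB3L2 by 1.66 ± 0.21, SIRT2, a deacetylase, by 0.64 ± 0.14 and MEF2D by 0.41 ± 0.16, the last not past the threshold without Ollie (0.27) or without RimRun (0.33). MFN2 (-0.30 ± 0.18) and GABARAP (-0.18 ± 0.10) were not DEGs, MFN2 except with sample weights (-0.28) and GABARAP except without Catnip (-0.24) or with median-of-ratios scaling (-0.24).

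Of 36 transcription factors of blood and macrophage lineages, 12 rose and 23 fell, the former near the share of all tested genes that rose (36.1%, with 38.4% lower). The granulocyte factor CEBPE fell most, from 259.9 (178 to 379.6) to 1.79 GeTMM (0.344 to 3.48, log2 change -6.54 ± 0.69), and MITF rose most. SPI1 (PU.1), shared by granulocytes, monocytes and macrophages, remained the most abundant at both ends, at 926 (778 to 1221) and then 639 (509 to 696, log2 change -0.64 ± 0.13). CEBPB fell from 327 (252 to 552) to 169 (86.9 to 295, log2 change -1.04 ± 0.25) and STAT3, which carries signals of several interleukins, by 0.53, a call lost without Dealings (-0.47), without Lurie (-0.46) or with the same sum in every sample (-0.47).

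The samples taken in between show when these changes came about. Between 48 hours and 10 days in ISF, 3967 genes (27.2%) rose and 3840 (26.4%) fell, and with the same sum given to every sample, which moved the median of all genes from 0.01 to -0.14, these counts were 2735 and 4657. Part of the RNA of the neutrophil list was still there at 48 hours, with a sum of 14596 (9099.8 to 25951) GeTMM. After that point 14 of the 16 genes of the list fell and MMP9 rose (MMP9 mean 688 at 48 hours, change 2.36 ± 0.43). The erythroid genes had mostly gone by 48 hours, at a summed 196 (131 to 392) GeTMM, and 5 of 24 fell later (7 with the same sum, 3 without Catnip, Lurie, Ollie or RimRun, 12 with a pseudocount of 0.1). Proliferation genes fell late, with summed levels in GeTMM of 1252 (737 to 1465) in fresh cells, 1146 (585 to 1481) after 48 hours and 330.2 (279 to 933) at the end, and 27 of 28 fell after 48 hours. Among genes that rose, MMP12 was still at a mean of 43.8 GeTMM at 48 hours and at 1594 at 6 days, a change of 6.43 ± 0.83 from 48 hours to 10 days. CTSK (3.07 ± 0.41), LPL (3.96 ± 0.51), PLTP (3.47 ± 0.31), CKB (3.66 ± 0.32) and PPARGC1A (3.23 ± 0.28) also rose over that interval. FTH1 and FTL had risen by 48 hours, with means of 24168 and 26144 GeTMM, and did not change detectably afterwards (-0.14 ± 0.25 and -0.36 ± 0.23). Some genes rose in the first 48 hours and then came down. SOCS3, a feedback inhibitor of cytokine signalling, had means of 10.1, 148 and 43.0 GeTMM at 0 hours, 48 hours and 10 days, CEBPB of 344, 929 and 174, SELP of 112, 290.2 and 4.49, and IL1B of 14.4, 23.8 and 0.895. From 0 to 48 hours SOCS3 (4.01 ± 0.37), CEBPB (1.43 ± 0.25) and SELP (1.44 ± 0.38) rose, while the change of IL1B was not called (0.58 ± 0.32). From 48 hours to 10 days all 4 fell, by 1.83, 2.47, 5.78 and 3.67 on the log2 scale.

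**Figure D4:**
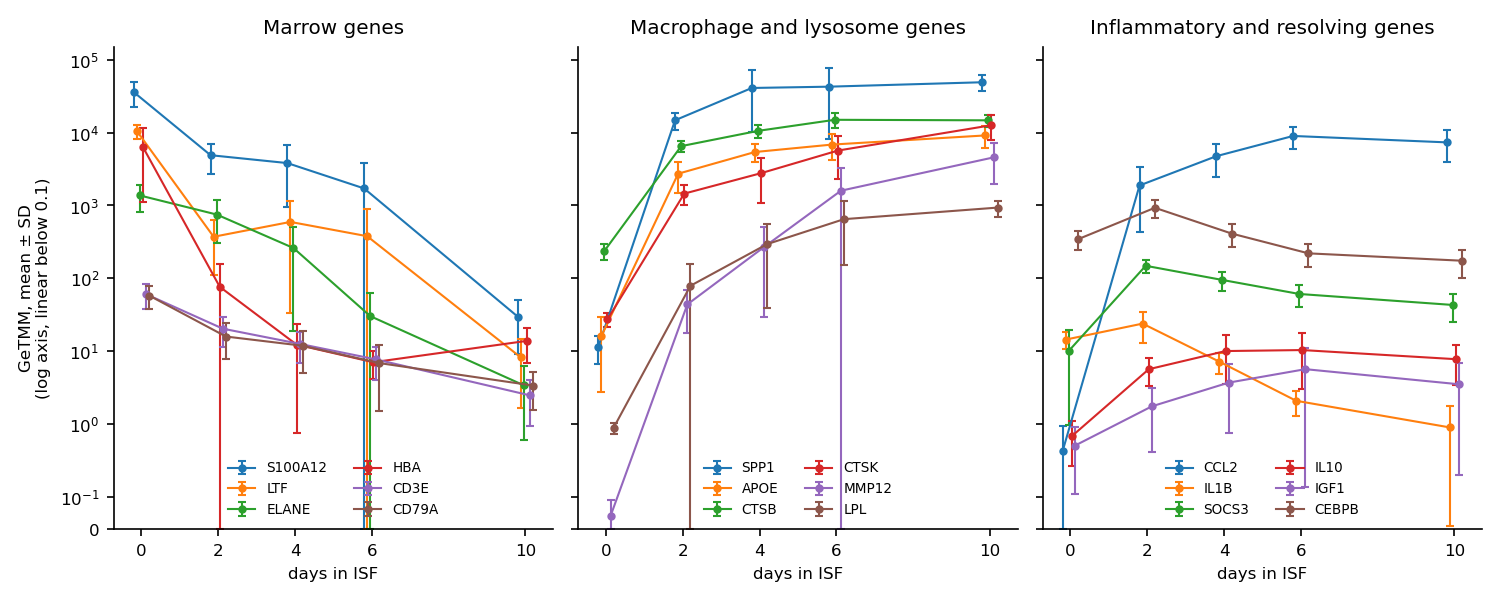
Mean GeTMM (± SD, lower ends stopped at 0) at 0 hours (n = 8) and after 48 hours (n = 7), 96 hours (n = 8), 6 days (n = 8) and 10 days (n = 7) in ISF, shown in days, on an axis that is logarithmic above 0.1 and linear below. The left panel holds marrow genes, the middle one macrophage and lysosome genes, and the right one inflammatory and resolving genes. ELANE falls late while HBA falls early, and MMP12 rises later than SPP1 or APOE.

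The study cultured the same cells in normal fluid as well, so the 7 ISF samples were compared with the 7 SF samples at 10 days. Both arms share the same samples at 0 hours, so this comparison is also the difference of the 2 net changes. It gave 1449 genes (9.95%) higher and 1578 (10.8%) lower in ISF. With the same sum given to every sample, which moved the median difference of all genes from -0.02 to -0.18, the counts were 645 and 2488, and without Dealings they were 910 and 1035. Genes and lists named below are therefore also given under that scaling where it changes them. Of the 20 macrophage markers, 3 were higher and 1 lower in ISF (3 and 2 with the same sum, 0 lower without Dealings, Lurie, Ollie or RimRun), the higher ones being MSR1, the integrin chain ITGAX and the tetraspanin CD9 and the lower one C1QB, the last 3 named after their values were seen. Other markers with large rises did not pass the test, with ISF minus SF log2 differences of 1.02 ± 0.63 for SPP1, -0.09 ± 0.37 for APOE, -0.51 ± 0.31 for GPNMB, 0.38 ± 0.28 for TREM2 and 0.25 ± 0.15 for CD68. CCL2 stood at 1756 (372 to 3961) GeTMM in SF against 9855 in ISF (1941 to 10136, log2 difference 2.09 ± 0.40, FDR = 6.46e-05), CTSL at 55.4 (31.6 to 128) against 571 (155 to 941, log2 difference 2.92 ± 0.32, FDR = 5.09e-10), MSR1 at 419.8 (259 to 678) against 1198 (856 to 1861, log2 difference 1.58 ± 0.33, FDR = 0.000248) and PCOLCE2 at 96.7 (27.0 to 158) against 303 (137 to 443, log2 difference 1.69 ± 0.28, FDR = 5.94e-06). The values of MSR1 did not overlap between the fluids, and those of PCOLCE2 overlapped through the ISF sample of Ollie. MMP12 (2.82 ± 0.83, FDR = 0.0103) and MMP9 (2.58 ± 0.43, FDR = 7.27e-06) were also higher in ISF, though MMP12 was not called without Dealings (2.44) or without Lurie (2.54).

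Glycolysis was the list with the most members higher in ISF. All counts of this paragraph stand beside 9.95% higher and 10.8% lower over all tested genes. Of 22 genes, 18 were higher and 1 lower in ISF (median 1.28), with LDHA at 596 (402 to 991) GeTMM in SF against 1583 in ISF (1071 to 2395, log2 difference 1.53 ± 0.16, FDR = 3.93e-10) and ENO1 at 1.43 ± 0.20. ALDOA and GAPDH, which were not DEGs over the culture in ISF, were higher in ISF than in SF (1.40 ± 0.20 and 1.43 ± 0.22). With the same sum in every sample 16 were still higher and 1 lower, and without any 1 horse 17 to 19 were higher. The respiratory chain list was less stable, with 15 of 63 genes higher in ISF and 0 lower, 7 higher and 1 lower with the same sum, 4 higher without Dealings, 5 without Lurie, 6 without Ollie and 39 without Moon. Of the 17 proton pump genes 8 were higher, 2 with the same sum and 2 without Dealings or without Lurie. Lysosomal genes were split, with 7 higher and 3 lower in ISF and 4 higher and 8 lower with the same sum, and between 4 (without Dreamer or Lurie) and 9 higher and 2 (without Dealings) and 6 (without Lurie) lower with 1 horse left out. Of 34 genes of the mevalonate, sterol and fatty acid synthesis list, 1 was higher and 2 were lower, both below the shares of all tested genes. Of 30 iron and antioxidant genes, 8 were higher and 6 lower (3 lower without Dealings), among them SRXN1 (1.37 ± 0.23, FDR = 6.04e-06). Of 29 inflammatory genes, 5 were higher and 2 lower in ISF. TREM1, which fell over the culture in ISF, was higher in ISF than in SF. Its log2 difference ran from 2.37 to 3.19 over all fits and was called in each.

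Lymphocyte genes lay lower in ISF, and fibroblast genes did so in the fit over all 68 samples. Counts of this paragraph stand beside 9.95% higher and 10.8% lower over all tested genes. T and natural killer cell genes were lower in 23 of 26 cases and higher in 1 (none higher with the same sum), with CD3E at 21.1 (4.69 to 57.7) GeTMM in SF against 2.12 in ISF (1.24 to 5.63, log2 difference -2.78 ± 0.43, FDR = 2e-06), and B cell genes were lower in 14 of 19 and higher in 1, with CD79A at 23.7 (3.64 to 74.3) against 3.19 (0.892 to 5.56, log2 difference -2.58 ± 0.46). Of the 14 fibroblast genes, 13 were lower in ISF (median -1.94), 6 without Dreamer or without Lurie, and 0 by limma with only the 2 fluid groups in the fit (7 at an unadjusted p under 0.05), with a summed level of 335 (47.6 to 4918) GeTMM in SF, and COL1A1 in SF at 6.66 (0.0632 to 1359). Among neutrophil genes, 7 of 16 were lower and 1, MMP9, was higher in ISF, and the count of lower genes was 0 without Catnip, 1 without Ollie, 4 without Lurie and 1 with only the 2 fluid groups in the fit. IGF1 was lower in ISF, at 22.6 GeTMM in SF (4.19 to 75.2, log2 difference -2.67 ± 0.66, FDR = 0.00215), as was ACP5 (-1.36 ± 0.34, FDR = 0.00246), while IL10 did not differ detectably (-0.31 ± 0.38, FDR = 0.635). Most lymphocyte genes and IGF1 were thus lower in ISF. For the fibroblast genes this held in the fit over all samples, not in that of the 2 fluid groups. Their summed level in ISF, 130.5 (56.1 to 385) GeTMM, lay within the range in SF. The part of other cell types in the IGF1 difference was not tested.

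**Figure D5:**
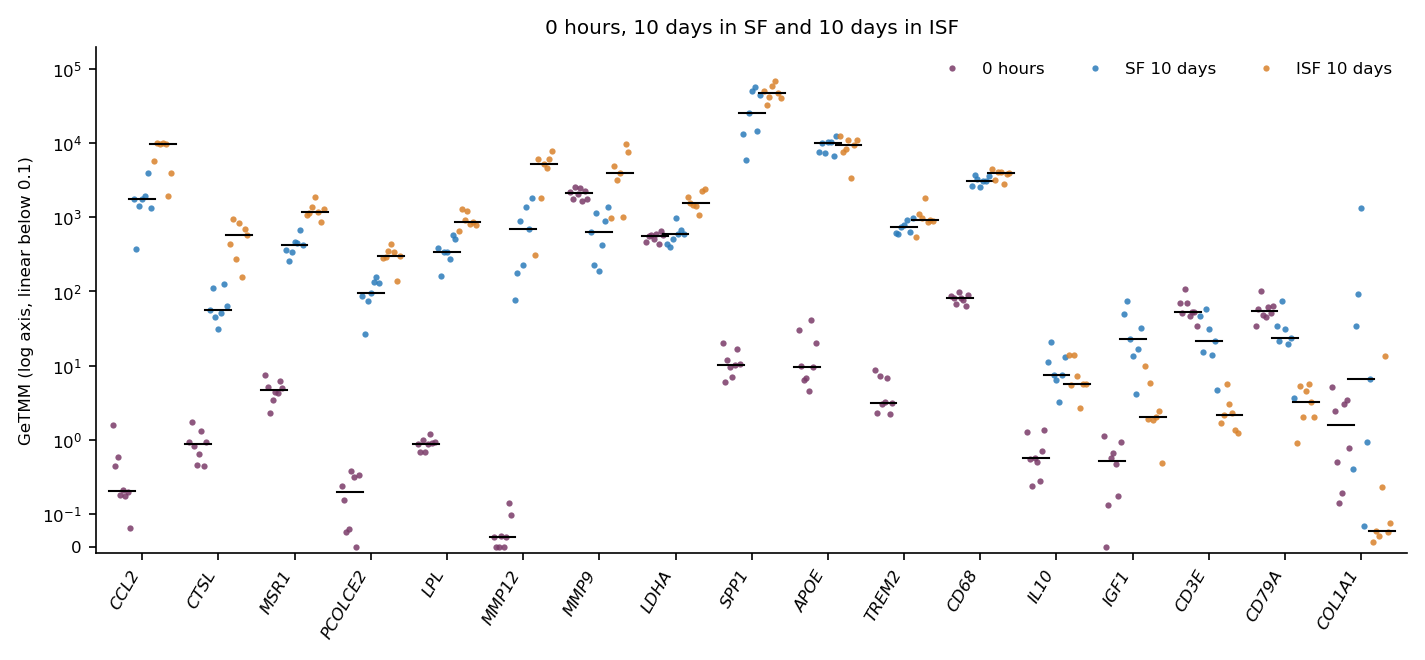
GeTMM per sample of 17 genes at 0 hours (purple, 8 samples), after 10 days in SF (blue, 7 samples) and after 10 days in ISF (orange, 7 samples), on an axis that is logarithmic above 0.1 and linear below, with black bars at the medians. For MSR1 each ISF sample lies above each SF sample, for APOE and CD68 the fluids overlap, and for CD3E and CD79A the ISF samples lie below most SF samples.

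The horses differed in how far some of these genes moved. Over all tested genes the SD of the log2 change between the 7 horses had a median of 0.38. Among the highest and most changed genes it was smallest for CTSZ, whose change lay between 3.94 and 4.56 in the 7 horses, and for PSAP (between 2.11 and 2.89). It was largest for HBA2 (between -13.13 and -7.12), whose level at 0 hours already differed more than 10 times. The change of LYZ lay between -11.17 and -6.80, that of MMP12 between 8.25 and 12.80 and that of APOE between 6.34 and 10.96. The lowest APOE value at 10 days, 3390.4 GeTMM, belonged to Moon, whose fibroblast genes stood apart, and the lowest SIGLEC15 value, 76.6, to Catnip. Even so, the direction was the same in all 7 horses for each of the 30 genes with the largest changes, which the choice of these genes required.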

How the data were processed

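RNA of BMNC was sequenced by the authors, who aligned reads to EquCab 3.0 with STAR 2.7.2a and deposited one table of 68 samples as GeTMM, which is an RPKM (reads per kilobase of gene and library size) scaled between samples with edgeR's TMM factors. The table lists 30371 entries, of which 13157 have no symbol and 744 share one, and shared symbols were left out of the gene lists. Per the labels, samples were grouped by fluid, time and horse, and each horse is a separate animal.

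From the deposited RPKM-type values, log2(GeTMM + 1) was fitted with limma 3.58.1 (R 4.3.3, lmFit and trended eBayes) over all 68 samples and 9 groups, without a horse term. The fit took the 14570 genes that reached 0.5 GeTMM in 7 or more samples, Benjamini-Hochberg adjustment ran over all of them, and the threshold was an FDR of 0.05. This adds a pseudocount of 1, so log2 changes of low genes are understated. A pair of single values per sample were compared within horses by exact sign-flip permutation. Lists and figures used Python 3.11.15 with numpy 2.4.6, pandas 2.3.3, scipy 1.17.1 and matplotlib 3.10.9.

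Read counts were recovered from the steps between the deposited values, and for all 24065 entries above 0 they came out whole within 0.02 reads, so depth and precision are known. They served in an alternative fit with limma voom, which called 5195 genes higher and 5506 lower over the net change. On drawn values of 14570 genes with 200 changed between 0 hours and ISF 10 days, 78.5% of log2 changes of 1 and 95.7% of those of 2 were called, and 3.89% of calls were false. The changed genes were drawn from those with a mean over 2 GeTMM. In the data 74.5% of genes were called, so these rates need not carry over.

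Samples of a horse come from the same animal, which gives the pairing. Their deviations from the group means correlated at 0.0692 to 0.201 over the 7 horses, and horse as a replicate block, which gave 5431 genes higher and 5709 lower over the net change, was an alternative. The other alternatives were another pseudocount, filters, scalings, sample weights, fits of only the groups compared, a minimum fold change, and leaving out each horse, the ISF 10 day sample of Moon, or the ISF 96 hour samples of Dealings and Dreamer, which lay closest to each other's horse.

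Genes named in the text were the 15 largest rises and falls with a symbol, at least 5 GeTMM in one group and 1 direction in all 7 horses, the 20 highest genes at each end, and from 22 lists the 4 highest members, the largest rise and fall and genes the study names. The samples compared and the gene lists were chosen with earlier results of these data known, so the lists are not independent evidence.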

Additional observations from a re-analysis of the deposited data

Results flagged for a closer look

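In 400 groups of values (named genes and summed lists at 0 hours or in ISF at 10 days), 34 samples lay apart from the rest of their group by Dixon's criterion, which chance gives in about 1 group in 20. Values are in GeTMM, against the range of the other samples.

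The sample of Ollie at 0 hours, whose summed GeTMM was the highest, gave 11 of them. It stood highest in S100P (47103 against 14408 to 24169.7), RETN (9853 against 3412 to 5443), ENSECAG00000010598 (66260.2 against 17926 to 32213) and RPL37 (10852 against 4689 to 6821). It was also highest in ANXA1 (1041 against 488 to 689), ATP5F1E (1886 against 898 to 1219), LUM (1.70 against 0.149 to 0.579), ATP6V1G1 (737 against 287 to 370.3) and MT-CO1 (23458 against 6748 to 11995). It stood lowest in MVK (2.46 against 5.82 to 7.77) and CTSK (14.8 against 23.3 to 34.0). The sample of Moon in ISF at 10 days gave 7, highest in COL1A2 (12.1 against 0 to 0.252), MCM6 (68.6 against 24.9 to 36.4), COL3A1 (6.72 against 0.0123 to 0.287), COL1A1 (13.6 against 0.0143 to 0.232) and LUM (10.8 against 0 to 0.670), and lowest in APOE (3390.4 against 7593 to 12632) and IL10RB (419.9 against 542 to 645).

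Among the other samples at 0 hours, Dealings was highest in IFI6 (441 against 74.3 to 153) and the summed interferon-stimulated list (3515 against 802 to 1402), and Flash was highest in THBS1 (231 against 39.2 to 64.3) and CDKN1A (24.1 against 0.783 to 3.17) and lowest in TYMS (74.5 against 122 to 149). Catnip was highest in CCL2 (1.59 against 0.0553 to 0.591) and WFDC2 (0.322 against 0 to 0), and Moon was lowest in IFIT3 (65.0 against 144 to 288) and highest in SIGLEC15 (0.1998 against 0 to 0). In ISF at 10 days, Catnip was highest in IRAK3 (10.8 against 2.32 to 4.403) and GP1BA (0.855 against 0.268 to 0.351) and lowest in SIGLEC15 (76.6 against 189.6 to 244). Ollie was highest in NFKBIA (149 against 36.3 to 60.1) and lowest in PCOLCE2 (137 against 280.0 to 443), Dealings was highest in TMSB4X (7883 against 5059 to 5814), and RimRun was lowest in THBS1 (1.41 against 9.77 to 31.8).

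The change from 0 hours to 10 days differed between ISF and SF for 1449 genes higher and 1578 lower in ISF (limma, FDR under 0.05), the test of the difference itself, since both arms share their samples at 0 hours.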

How the results depend on the processing

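The direction and call of the net change held in every refit for 156 of 176 named genes, and of 75 called fluid differences among them 35 held in every refit, none reversed and 40 lost the call in at least 1. Requiring a log2 fold change of at least 1 gave 2796 higher and 3112 lower genes over the net change, 344 and 580 for ISF against SF, and 1424 and 1599 from 48 hours to 10 days. With the same sum in every sample, ISF against SF gave 645 higher (20.6% of calls, 47.9% as reported) and 2488 lower, while the net change gave 5323 and 5160. With horse as a replicate block the net change gave 5431 and 5709, and the block changed no call of a named net change other than that of IGF1, and GAPDH (0.42) in the fit of 2 groups. With a threshold of 10 GeTMM the number of genes changed by -66.3 per horse. Leaving out each horse in turn gave 5073 to 5381 higher and 5333 to 5739 lower genes for the net change, 910 (without Dealings) to 1975 (without Moon) and 1035 to 2111 for the fluids, and 3509 to 4355 and 3372 to 4205 from 48 hours to 10 days. Leaving out Moon also removed its SF 6 day sample, whose summed GeTMM of 2321940 was the highest of all 68 samples. No refit left out that sample alone. Without only the ISF 10 day sample of Moon the fluids gave 1373 higher and 1469 lower genes. With only the 2 groups compared, a fit that does not use the SF 6 day sample, they gave 1443 and 1531. The change in the share of the 20 highest genes ranged from -1.68 to 0.10 percentage points, the latter without Ollie, and that in the number of genes at 1 GeTMM or more from -537 to -453.

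Signs turned for 7 named genes, none of them called and all but LUM near 0. Leaving out each horse in turn, the log2 change ran from -0.35 to 0.0440 for C1QC, -0.11 to 0.0674 for UROD, -0.20 to 0.0495 for TGFB1, -0.0846 to 0.11 for GP1BA, -0.12 to 0.0137 for AURKA and -0.32 (without Moon) to 0.39 for LUM. C1QC turned with horse as a block (0.11), UROD (0.0250) and AURKA (0.0146) with the same sum, ENSECAG00000041882 with sample weights (0.0154), and TGFB1 (0.0483) and LUM (-0.33) without the ISF 10 day sample of Moon. GP1BA turned with horse as a block (-0.00606), the block and only the groups compared (-0.0263), median-of-ratios scaling (-0.0130) and sample weights (-0.0256), and LUM with voom on recovered reads (-1.22) and a pseudocount of 0.1 (-0.46). The causes were not tested. Depth limits genes under about 1 GeTMM, where differences rest on few reads.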

Other observations

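Interferon-stimulated genes, which respond to antiviral signals, did not move in 1 direction over the culture. Of 24 tested, 5 rose, 5 fell and 14 were not called (median log2 change 0.31). Both counts lie below the shares of all tested genes (36.1% higher, 38.4% lower). IFI6 went from 113 (74.3 to 441) GeTMM at 0 hours to 1496 in ISF at 10 days (460.1 to 2698, log2 change 3.43 ± 0.50, FDR = 1.34e-08) and BST2, which tethers budding virus, from 32.8 (16.2 to 73.1) to 125 (109 to 344, log2 change 2.35 ± 0.42, FDR = 1.24e-06). ISG20, an exonuclease, fell from 86.3 (59.5 to 125) to 0.936 (0.314 to 4.31, log2 change -5.03 ± 0.43, FDR = 3.42e-16) and was the member lower in ISF than in SF at 10 days (-1.68 ± 0.45, FDR = 0.0044). IFIT3 (-0.43 ± 0.63) was not called. The summed list at 0 hours was highest in Dealings, at 3515 GeTMM against 802 to 1402 in the other 7 horses.

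MMP1, an interstitial collagenase named after its values were seen, behaved unlike MMP12, with 1794 (1307 to 2332) GeTMM at 0 hours and 55.3 in ISF at 10 days (18.0 to 120.5, log2 change -5.19 ± 0.48, FDR = 6.49e-15). Of all tested genes, 198 had no read in any of the 7 samples in ISF at 10 days and 113 had none in any of the 8 samples at 0 hours.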
